A study of Mus musculus with 74 samples.

Results

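H3K9me3 in mouse cumulus cells (CC), the somatic cells that surround the oocyte, was compared with H3K9me3 in fertilized zygotes at pronuclear stage 5 (PN5), base by base, per 1-kb window, per gene body and per promoter of the 19 autosomes. Every autosomal peak of the 2 groups was a member, namely 141728 peaks in CC and 127311 in PN5, together 269039 of the 1451274 autosomal peaks in the 10 peak lists of the series. The series follows H3K9me3 from CC through cloned embryos from somatic cell nuclear transfer (SCNT), where a CC nucleus replaces that of an oocyte, and it holds 74 libraries in 20 groups. Of these, 12 belong here: 4 H3K9me3 and 4 input libraries of CC, and 2 H3K9me3 and 2 input libraries of PN5. All were made by ultra-low-input native ChIP-seq, in which chromatin is cut with micrococcal nuclease without crosslinking, and both sets of H3K9me3 libraries used the same antibody.

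CC came from superovulated B6D2F1 females, and PN5 zygotes came from C57BL/6 females mated with C57BL/6 males and were collected 20 h after hCG, the hormone that triggers ovulation. The study generated its own CC data and took the fertilized data from an earlier publication. Cell type, strain, sex of the cells and source of the data therefore change together, and their parts in any difference below cannot be told apart. The authors merged the replicates, drew equal numbers of reads per group and called 1 broad peak list per group over its input. No value has a replicate error and no test between groups was possible, so 95% Wilson intervals, where given, cover counting error over windows or promoters only. A base outside the peaks fell below the detection limit of the peak caller, which leaves a weak mark there possible.

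H3K9me3 is the trimethylated lysine of histone H3 that marks constitutive heterochromatin. It is written by enzymes such as SETDB1, which zinc finger proteins bring to transposable elements through TRIM28, and SUV39H2, and it is bound by HP1 proteins. In somatic cells it also lies over clusters of duplicated genes that the cell does not use, such as those for odour and pheromone receptors. PN5 is the last pronuclear stage, when the maternal and paternal genomes, that from the oocyte and that from a sperm that has exchanged its protamines for histones, still lie in separate pronuclei.

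The strongest peaks of each kind show what kind of sequence lies under them. Printed here, with CpG dinucleotides in capitals, are up to 200 central bases of the peak with the highest fold enrichment (the authors' ratio of precipitate over background) that shares no base with the other list, of the same among PN5 peaks at least 2 kb wide, and of 1 shared peak. The shared peak was that with the lowest sum of fold ranks, 47 in CC and 57 in PN5. All are on the plus strand of GRCm38.p6 (mm10). The CC peak at chr6:147236734-147237019 (fold 7.82, intergenic, 15.2 kb from Pthlh) is a CTAT repeat, and the PN5 peak at chr12:32131701-32131879 (fold 13.9, intergenic, 41.7 kb from Pik3cg) is a CCT repeat. Both are soft-masked over their whole width, as is the shared peak at chr17:7910948-7911627 (fold 6.30 in CC and 5.17 in PN5), which lies in an intron of E430024P14Rik, 14.7 kb from Tagap. Simple repeats take reads from many places, and how reads with several positions were placed is not given in the sources used here. The wide PN5 peak lies 19.8 kb from Ucn3 (chr13:3963262-3967048, 3787 bp, fold 4.95).
CC only, chr6:147236777-147236976: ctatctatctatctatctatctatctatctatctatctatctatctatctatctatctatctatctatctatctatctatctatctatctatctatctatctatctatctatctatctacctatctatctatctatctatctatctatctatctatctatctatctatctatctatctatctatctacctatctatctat
PN5 only, chr12:32131701-32131879: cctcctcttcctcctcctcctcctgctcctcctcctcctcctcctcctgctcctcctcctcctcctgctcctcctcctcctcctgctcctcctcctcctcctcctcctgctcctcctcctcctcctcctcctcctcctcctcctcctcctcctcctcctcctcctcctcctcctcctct
PN5 only and at least 2 kb wide, chr13:3965055-3965254: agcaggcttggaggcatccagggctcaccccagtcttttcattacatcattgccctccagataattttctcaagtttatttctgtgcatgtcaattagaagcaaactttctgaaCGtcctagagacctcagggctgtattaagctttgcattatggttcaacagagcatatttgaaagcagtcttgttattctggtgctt
Shared, chr17:7911192-7911391: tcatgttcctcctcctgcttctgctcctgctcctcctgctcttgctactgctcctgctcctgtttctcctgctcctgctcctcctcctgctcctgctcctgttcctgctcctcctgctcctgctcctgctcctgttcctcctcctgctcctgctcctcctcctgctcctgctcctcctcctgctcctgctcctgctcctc

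Promoters under the strongest peaks of a single list are shown in the same way, from 250 bases before to 50 after the start that RefSeq gives on GRCm38.p6, wherever at least 50% of the 300 bases lay under a peak of that list (all 3 such windows for CC, the first 4 of 5 for PN5). A promoter of this length held a median of 7 CpG over the 32851 in the RefSeq table, with a 10th percentile of 1 and a 90th percentile of 31. Tcfl5, which encodes a testis basic helix-loop-helix transcription factor, and Stag3, which encodes a cohesin subunit of meiosis, held 35 and 30 CpG and lay wholly under CC peaks. Epp13, an epididymal gene, held 2 CpG and had 236 of its 300 bases under a CC peak. Alad, which encodes an enzyme of heme synthesis, held 33 CpG with 270 bases under a PN5 peak. Fbxo39, an F-box gene, F7, which encodes coagulation factor VII, and Lhcgr, which encodes the luteinizing hormone receptor of granulosa cells, held 19, 5 and 14 CpG and lay wholly under PN5 peaks. CpG-rich and CpG-poor promoters occurred on both sides.
Tcfl5, CC only, minus strand, chr2:180642642-180642941: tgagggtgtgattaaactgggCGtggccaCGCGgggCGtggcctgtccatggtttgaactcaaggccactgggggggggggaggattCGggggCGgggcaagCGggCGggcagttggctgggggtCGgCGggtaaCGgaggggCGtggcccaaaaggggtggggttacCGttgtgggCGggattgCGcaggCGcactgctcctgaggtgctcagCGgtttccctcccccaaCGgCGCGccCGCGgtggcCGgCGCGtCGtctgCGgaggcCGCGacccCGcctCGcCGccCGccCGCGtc
Stag3, CC only, plus strand, chr5:138280259-138280558: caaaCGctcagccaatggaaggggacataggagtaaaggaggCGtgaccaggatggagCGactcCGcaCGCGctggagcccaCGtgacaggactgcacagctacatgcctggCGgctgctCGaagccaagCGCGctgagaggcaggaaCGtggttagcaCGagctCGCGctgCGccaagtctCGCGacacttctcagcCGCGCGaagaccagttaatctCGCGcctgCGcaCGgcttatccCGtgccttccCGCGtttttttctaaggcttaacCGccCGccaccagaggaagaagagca
Epp13, CC only, plus strand, chr7:6252460-6252759: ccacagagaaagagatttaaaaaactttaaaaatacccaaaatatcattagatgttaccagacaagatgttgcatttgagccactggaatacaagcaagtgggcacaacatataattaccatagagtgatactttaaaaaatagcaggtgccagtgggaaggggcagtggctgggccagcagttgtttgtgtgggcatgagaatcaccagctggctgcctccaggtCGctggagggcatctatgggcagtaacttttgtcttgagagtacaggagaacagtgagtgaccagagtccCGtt
Alad, PN5 only, minus strand, chr4:62519860-62520159: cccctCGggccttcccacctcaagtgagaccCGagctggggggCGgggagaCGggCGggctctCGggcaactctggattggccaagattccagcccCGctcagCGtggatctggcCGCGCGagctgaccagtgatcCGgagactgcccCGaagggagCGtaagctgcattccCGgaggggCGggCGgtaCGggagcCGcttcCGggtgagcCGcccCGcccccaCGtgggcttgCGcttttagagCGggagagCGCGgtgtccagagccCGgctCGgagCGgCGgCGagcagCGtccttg
Fbxo39, PN5 only, plus strand, chr11:72314194-72314493: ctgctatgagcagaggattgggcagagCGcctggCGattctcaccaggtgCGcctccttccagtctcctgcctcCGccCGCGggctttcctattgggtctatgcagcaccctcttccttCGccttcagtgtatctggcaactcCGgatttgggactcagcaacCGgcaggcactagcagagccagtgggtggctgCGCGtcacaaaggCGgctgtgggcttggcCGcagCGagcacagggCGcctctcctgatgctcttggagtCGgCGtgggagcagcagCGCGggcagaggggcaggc
F7, PN5 only, plus strand, chr8:13025784-13026083: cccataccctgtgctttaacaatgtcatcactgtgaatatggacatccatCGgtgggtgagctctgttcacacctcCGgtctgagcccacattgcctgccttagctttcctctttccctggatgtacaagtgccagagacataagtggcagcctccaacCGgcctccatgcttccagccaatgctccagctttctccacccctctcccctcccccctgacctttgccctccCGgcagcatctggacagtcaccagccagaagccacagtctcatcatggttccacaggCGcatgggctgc
Lhcgr, PN5 only, minus strand, chr17:88791965-88792264: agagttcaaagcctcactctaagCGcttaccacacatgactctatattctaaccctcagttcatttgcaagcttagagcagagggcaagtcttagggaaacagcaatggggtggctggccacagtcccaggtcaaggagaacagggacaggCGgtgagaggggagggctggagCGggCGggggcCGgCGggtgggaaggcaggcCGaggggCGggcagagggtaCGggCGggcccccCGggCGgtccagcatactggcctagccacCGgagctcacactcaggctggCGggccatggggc

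CC peaks covered more of every autosome than PN5 peaks did, and mostly at other places. CC peaks covered 212.4 Mb, or 8.86% of the 2396 Mb of assembled autosomal sequence, and PN5 peaks covered 129.0 Mb, or 5.39%, a ratio of 1.65. The ratio ran from 1.10 on chromosome 6 to 2.92 on chromosome 7. Chromosome 7 stood apart in CC with 21.7% of its bases under peaks, and had the highest PN5 value too, 7.44%, while the lowest values were 5.63% in CC (chromosome 16) and 3.93% in PN5 (chromosome 19). The lists shared 40.8 Mb. That was 19.2% of the CC length, against 5.39% of all assembled bases under PN5 peaks. It was 31.6% of the PN5 length, against 8.86% of all assembled bases under CC peaks. The Jaccard index, bases in both lists divided by bases in at least 1 of them, was 0.136. Along the genome this index lay between 0.112 on chromosome 19 and 0.187 on chromosome 14.

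**Figure D1:**
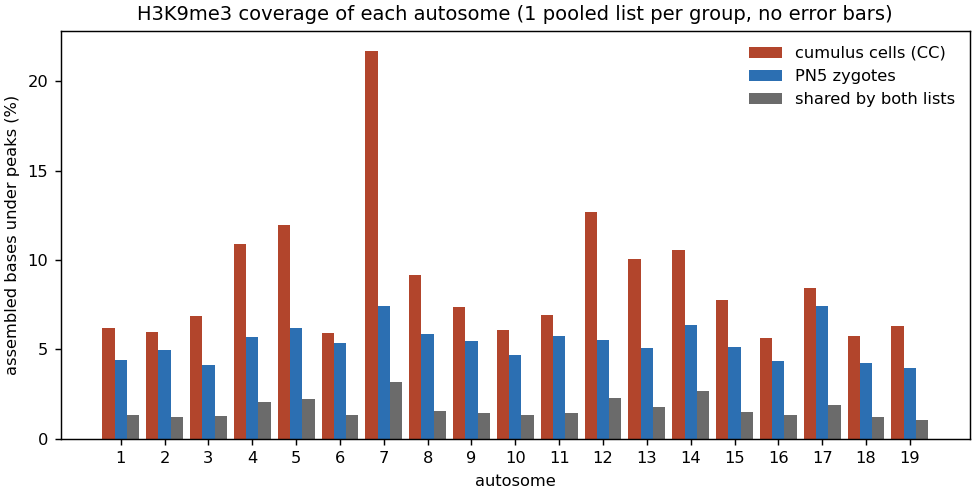
Bars give the percent of assembled bases of each autosome (x axis, numbered) under CC peaks, under PN5 peaks and under both (y axis, percent), from 1 pooled list per group and so without error bars. CC is above PN5 on all 19 autosomes, with the widest gap on chromosome 7 (21.7% against 7.44%).

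PN5 peaks were only slightly narrower than CC peaks at the median, and the difference lay in the widest domains. The median width was 738 bp in CC and 671 bp in PN5, and the middle 80% of widths ran from 218 to 3075 bp and from 184 to 2241 bp. CC had 1893 peaks over 10 kb, which held 18.7% of its length, whereas PN5 had 56, which held 0.559%. Of those CC domains 83.8% touched a PN5 peak, yet only 20.7% of their length lay under PN5 peaks, so PN5 marked stretches inside them and not the whole. The reverse held for PN5, where 75.1% of the length of peaks over 10 kb was also marked in CC, against 22.5% for PN5 peaks under 500 bp.

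The longest CC peak spanned 274.6 kb at chr4:153204388-153478982, over Ajap1, which encodes a junction protein, and 22.4% of it lay under PN5 peaks. The next 2, of 259 and 238 kb, flank it at chr4:153484681-153743993 and chr4:152847806-153085314 and hold no protein-coding gene. The longest PN5 peak spanned 40.04 kb at chr17:13205398-13245434, over the sperm motility kinase genes Smok2a and Smok2b, and all of it was marked in CC. The second, 23.8 kb at chr9:3053404-3077227, was also marked throughout in CC. The third, 19.4 kb over Plec, which encodes the cytolinker plectin, at chr15:76169930-76189292, was marked over 43.4% of its length in CC.

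Most peaks of either list met no peak of the other. In CC 106058 of 141728 peaks (74.8%) shared no base with a PN5 peak, and in PN5 84091 of 127311 (66.1%) shared none with a CC peak. Strong peaks were shared more often, but far from always. Of the 1000 peaks of highest fold, 403 in CC and 558 in PN5 shared a base with the other list. The unshared peaks of at least 2 kb included, in CC, those upstream of Tcfl5 (chr2:180642049-180645497, fold 5.64), over Klf14, a single-exon imprinted gene for a Krüppel-like factor (chr6:30954518-30958610, fold 5.39), and in an intron of Atxn1 (chr13:45622904-45625304, fold 5.44). In PN5 they included introns of Itpr2, the inositol trisphosphate receptor gene (chr6:146401492-146404023, fold 4.38), and Dnah14, a dynein gene (chr1:181740295-181743854, fold 4.28).

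Counted in 1-kb windows, with 50% of a window under peaks required to call it marked, 161229 of 2395928 windows were marked in CC only (6.73%), 79064 in PN5 only (3.3%) and 36433 in both (1.52%). Of CC windows 18.4% (interval 18.3 to 18.6) were marked in PN5, against 4.82% of all windows. Of PN5 windows 31.5% (31.3 to 31.8) were marked in CC, against 8.25% of all windows. Few of these windows were partly covered by the other list, since 84.4% of the windows marked in CC only held no base of a PN5 peak and 85.3% of those marked in PN5 only held no base of a CC peak. Windows of high fold were shared more. The share of CC windows marked in PN5 went from 8.5% in the lowest 10% of CC fold to 39.3% in the highest 10%, and the share of PN5 windows marked in CC from 28.1% in the lowest 10% of PN5 fold to 40.3% in the highest, with a minimum of 21.5% in the next to lowest. Over the 36433 shared windows the folds were weakly related, with a Spearman correlation of 0.258 that is across windows of 1 pair of lists and carries no test.

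On the scale of 1 Mb, the CC mark was concentrated in few places and the PN5 mark was spread. CC covered at least 20% of 247 of 2403 bins and PN5 of 23, of which 15 were the same bins, whereas the medians were close at 4.27% in CC and 4.46% in PN5. CC was the higher in 1266 bins and PN5 in 1137. The widest gap in favour of CC was at chr5:94000001-95000000, where 97.1% of the bin lay under CC peaks and 8.85% under PN5 peaks, over 13 protein-coding genes, most of them predicted models, such as AA792892 and BC061212. Next came chr7:14000001-15000000 (88.3% and 5.60%), which holds the sulfotransferase genes Sult2a3, Sult2a6, Sult2a7 and Sult2a8 with Obox7 and Obox8, and chr7:40000001-41000000 (89.7% and 7.57%), which holds Vstm2b. The bin at chr2:171000001-172000000 (90.8% and 9.87%) has no protein-coding gene start, and that at chr7:26000001-27000000 (87.0% and 6.73%) holds Cyp2a, Cyp2b and Nlrp genes. Gaps in favour of PN5 were smaller. The first 2 adjoin each other on chromosome 12, at chr12:103000001-104000000 (3.93% in CC and 24.9% in PN5) and chr12:104000001-105000000 (3.81% and 24.4%), and hold the Serpina cluster. They were followed by the bin of Sall1, a transcription factor gene, at chr8:89000001-90000000 (4.08% and 22.3%), that of Mgmt, a DNA repair gene, at chr7:136000001-137000000 (0.905% and 18.7%), and that of Cav3, Oxtr, Rad18 and Srgap3 at chr6:112000001-113000000 (3.79% and 20.6%).

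The groups also differed in the sequence that they marked. The share of windows marked in PN5 increased with GC content at every step, from 0.320% of windows under 36% GC to 14.8% of those with at least 55%. In CC it was 3.97% under 36% GC and lay between 7.70% and 10.1% in the other classes. The median GC was 41.9% for windows marked in CC only and 46% for those marked in PN5 only, against 41.7% for all windows, and it was 46.2% for windows marked in both. The groups come from different studies, so a GC preference of the libraries and one of the mark cannot be told apart.

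Repeat content separated the groups the other way. Soft-masked bases, which are interspersed and simple repeats, made up on average 57.1% of windows marked in CC only, 30.6% of those marked in PN5 only and 67.2% of those marked in both, against 33.5% of all windows. CC marked 33.0% of windows that were at least 90% masked and 3.95% of those under 10%. For PN5 the corresponding shares were 9.83% and 5.20%, with the lowest, 3.44%, between 10 and 30% masked. PN5 windows rich in repeats were mostly marked in CC as well (79.8% at 90% masked or more), and PN5 windows of unique sequence seldom were (11.0% under 10% masked).

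**Figure D2:**
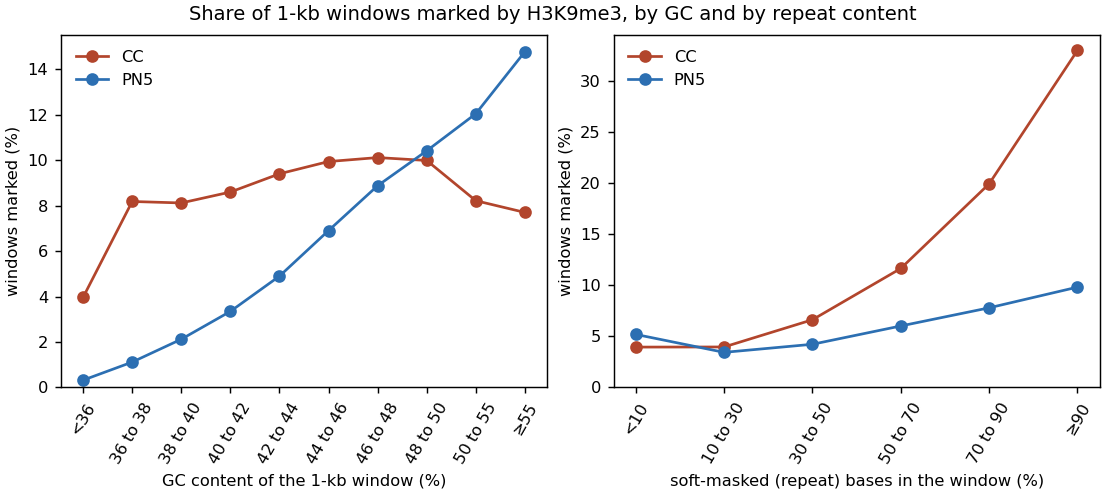
Points give the share of 1-kb autosomal windows marked in CC and in PN5 (y axes, percent) in classes of GC content (left, percent) and of soft-masked bases (right, percent), each from 1 pooled list per group. The PN5 line climbs from 0.320% to 14.8% with GC, and the CC line climbs from 3.95% to 33.0% with repeat content.

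Windows marked in both groups were rich in CpG and in 2 of 5 motifs searched. They held 17.1 CpG per kb, against 11.0 in windows marked in PN5 only, 8.38 in those marked in CC only and 8.51 in all. The letters TGCCGC, the core of the sequence bound at imprinting control regions by ZFP57, and GCCATNTTG, a core of the YY1 site, were searched on both strands. Among windows of 45 to 50% GC, TGCCGC was found in 30.5% of windows marked in both, 10.5% of those marked in CC only, 9.96% of those marked in PN5 only and 9.54% of all. GCCATNTTG was found in 20.5%, 9.46%, 7.39% and 6.12% of the same classes. The other 3 motifs were rare and showed no such excess in windows marked in both. AGGGGGCGC, a core of the CTCF site, was found in 0.314% of windows marked in both and 0.280% of all, tandem TTAGGG, the telomere repeat, in 0.0134% and 0.0155%, and tandem GAA in 0.267% and 0.566%. Tandem TTAGGG was more frequent in windows marked in PN5 only, at 0.0564%, and was found in 0.0089% of those marked in CC only. A match describes letters and not binding.

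The excess in CC lay between genes. CC peaks covered 11.8% of intergenic bases and PN5 peaks 5.72%, a ratio of 2.07, whereas the ratio was 1.18 over introns, 0.914 over exons and 1.00 over promoters. Intergenic bases made up 68.1% of the CC list and 54.1% of the PN5 list, and introns 28% and 39.0%.

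Over gene bodies the order depended on the measure. Of 20807 autosomal protein-coding genes, 644 were covered at least 50 percentage points more in CC (3.1%) and 275 at least 50 points more in PN5 (1.32%), and these are called CC genes and PN5 genes below. The order was opposite for any contact with a peak. At least 1 base lay under a CC peak in 45.4% of genes and under a PN5 peak in 55.7%, and 6716 genes held none of either. Coverage was higher by any amount in CC for 5173 genes and in PN5 for 8903. Genes covered by at least 50% numbered 856 in CC and 414 in PN5, of which 105 were covered in both. CC genes were concentrated on chromosome 7, with 243 of 644 (37.7%), and 80.9% of them had low-CpG promoters, against 31.7% of all. PN5 genes were spread, with 30 on chromosome 7, 28 on chromosome 11 and 25 on chromosome 12. These counts are not scaled to the number of genes on each chromosome. Of PN5 genes 46.9% had low-CpG and 37.8% high-CpG promoters, against 31.7% and 49.9% of all. CC genes and PN5 genes were short, with median lengths of 5949 and 3636 bp against 17629 bp for all. The PN5 count depends on the peak threshold, since it was 160 among peaks with a −log10 q of at least 2, and the CC count depends on the length of the list, since it was 360 after the weakest CC peaks were removed until the lists were equally long.

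**Figure D3:**
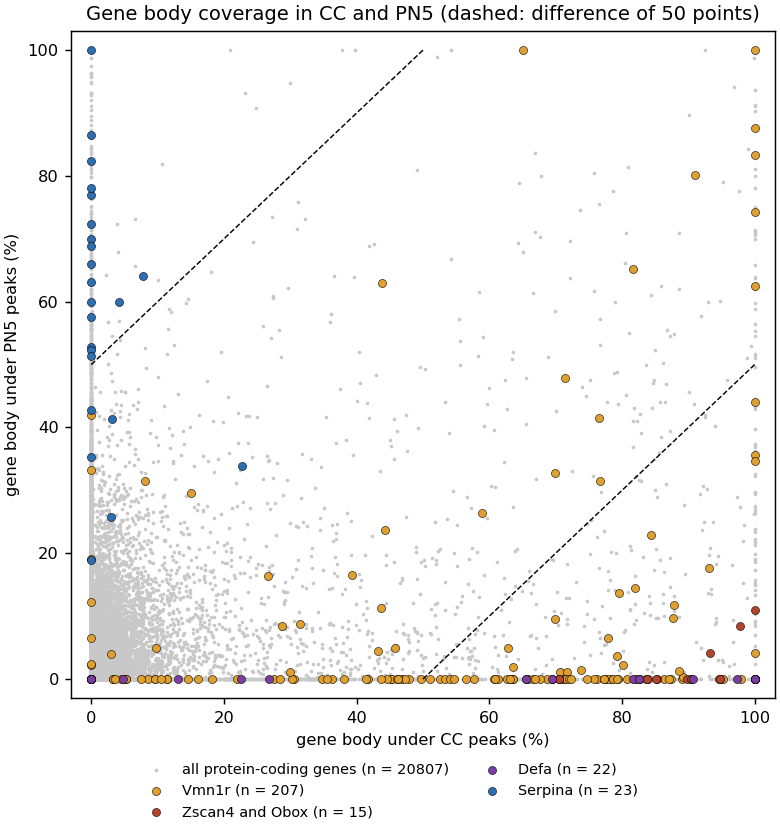
Each point is an autosomal protein-coding gene, placed by the percent of its body under CC peaks (x axis) and under PN5 peaks (y axis), with dashed lines at a difference of 50 points and 4 gene families in colour. Zscan4, Obox and Defa genes lie along the bottom edge, Vmn1r genes are spread along it with some covered in both, and Serpina genes lie along the left edge.

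The 12 CC genes with the most bases in excess included the early embryo genes Obox1 and Obox3. Ranking by bases favours long genes. Tmem132d, one of a family of transmembrane proteins, spans 651448 bp at chr5:127781630-128433077 and was covered over 96.7% in CC and 5.84% in PN5. Its relatives Tmem132c (81.3% and 11.2%) and Tmem132b (66.2% and 13.6%) lie on the same chromosome and were covered alike. Others of this group act in neurons: Unc5d, a netrin receptor gene (54.0% and 0.81%), Caln1, a calcium sensor gene (68.3% and 9.93%), and Rimbp2, a gene of the presynaptic active zone (78.9% and 14.1%). Cpne4, a copine gene, was covered over 60.4% and 1.89%, Mtus2, a microtubule protein gene, over 69.7% and 10.9%, and Nek11, a kinase gene, over 57.2% and 4.45%. The homeobox genes Obox1 (93.2% and 4.09%) and Obox3 (97.8% and 8.46%) overlap each other on chromosome 7. C130026I21Rik was the member with the highest PN5 value, 30.7%, beside 92.3% in CC. For Tmem132d, Unc5d, Mtus2, Tmem132b, Rimbp2 and Nek11 the promoter was outside the marked stretch in both groups, so the mark lay in the body and left the start free. With lists of equal length 5 of the 12 calls were lost, as the difference was 15.7 points for Unc5d, 19.8 for Cpne4, 39.4 for Nek11, 45.6 for Caln1 and 48.97 for Tmem132b.

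The PN5 genes with the most bases in excess were shorter, and 5 of the 12 were Serpina genes, which encode secreted inhibitors of proteases made mainly in liver. Serpina1a was covered over 82.4% in PN5 and had no base under a CC peak, and the same held for Serpina1c (86.5%), Serpina1e (72.3%) and Serpina12 (69.997%). Serpina1b, whose annotated body of 102218 bp encloses relatives, was covered over 59.9% in PN5 and 4.11% in CC. The other 7 have unlike roles. Jag2, a Notch ligand gene (50.4%), Hjurp, whose product loads CENP-A at centromeres (72.2%), Abca2, a lipid transporter gene (50.6%), Brat1, a gene of the DNA damage response (60.6%), and Flrt1, a gene for a membrane protein with leucine-rich repeats (59.6%), had no base under a CC peak. Colgalt1, a collagen glycosyltransferase gene, was covered over 73.2% in PN5 and 6.55% in CC, and Tex33, a testis gene, over 65.7% and 6.54%. Among peaks with a −log10 q of at least 2 the calls of Abca2, Jag2, Tex33, Serpina1b and Serpina1e were lost, with CC minus PN5 differences of -5.70, -32.0, -42.8, -43.96 and -49.4 points.

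The whole Serpina cluster showed this pattern. Of 23 Serpina genes on chromosome 12, 17 were PN5 genes (against 1.32% of all genes). The mean coverage was 59.1% in PN5 and 1.77% in CC, and 18 had no base under a CC peak. In PN5 only, 17 promoters were marked (against 7.71% of all promoters). Serpina3g was covered over 100% in PN5 and 0% in CC. The related Serpinb genes, which encode inhibitors that stay inside the cell, were near 0 in both groups (26 genes, 2.97% in PN5 and 1.71% in CC). There were 6 calls instead of 17 among peaks with a −log10 q of at least 2. The Serpina genes are close copies of each other, and how reads that fit several copies were placed is not given in the sources used here.

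Few genes were covered nearly throughout in both groups, 23 at 90% or more. The 6 longest were Tcp10c (96.9% in CC and 94.2% in PN5), Ugt1a1, the gene of the enzyme that conjugates bilirubin, Smok2a, Smok2b and Speer4c (each 100% in both), and Gm21149 (100% and 91.3%). Of these, Tcp10c, Smok2a and Smok2b neighbour each other on chromosome 17, and Gm21149 and Speer4c are near each other on chromosome 5. Smok2, Tcp10 and Speer genes are multi-copy families of the testis.

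Genes of the 2-cell embryo were mostly covered in CC. The list held 41 genes of the 2-cell stage, many of which are transcribed as the embryonic genome is activated. Of these, 27 were CC genes (65.9%, against 3.1% of all genes) and none was a PN5 gene (against 1.32%). The mean coverage was 63.2% in CC and 4.02% in PN5. All 8 Zscan4 genes, which act at telomeres in 2-cell embryos, were CC genes, with a mean of 89.95% in CC and no base under a PN5 peak. All 7 Obox genes were CC genes (95.9% and 3.36%), as were 4 of 5 Usp17l genes (72.3% and 5.70%), 3 of 5 Tdpoz genes (54.4% and 0%) and 4 of 11 Pramel and Pramef genes (32.4% and 4.22%). Duxf3, of the Dux family of activators of this programme, was covered in both groups, over 100% in CC and 63.8% in PN5. Both Tcstv genes had no base under a peak of either list. How reads that fit several copies were placed is not given, as for Serpina genes, and this limits all duplicated families here and below.

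Among 33 oocyte genes 9 were CC genes (27.3%, against 3.1% of all genes), none was a PN5 gene (against 1.32%), and 19 had no base under a CC peak. They were of duplicated families: 8 of 11 Nlrp genes, which encode maternal proteins of the cell cortex among others, with a mean of 71.1% in CC and 4.12% in PN5, and 1 of 4 Oog genes. Nlrp5, a maternal effect gene, was covered over 96.2% in CC and 2.10% in PN5, with its promoter under a CC peak throughout. Single-copy oocyte genes were mostly free in both groups. Gdf9, Nobox, Figla, Dppa3, Mos, Khdc3, Ooep, H1foo and Sohlh1 had no base under a peak of either list, and the zona pellucida genes Zp1, Zp2 and Zp3 were at 0% in CC and between 2.33% and 7.83% in PN5. The highest PN5 values among them were those of Tle6 (47.1%) and Npm2 (32.3%), maternal effect genes that had no base under a CC peak.

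Clusters of pheromone receptor, toxin and detoxification genes stood on the side of CC. Of 207 vomeronasal type 1 receptor (pheromone receptor) genes 95 were CC genes, with a mean of 49.2% in CC and 6.87% in PN5, and of 119 vomeronasal type 2 receptor genes 37 were CC genes (40.1% and 4.71%). Olfactory receptor genes, the largest list with 1128, were near the level of all genes in CC calls, with 42 CC genes (3.72%, against 3.1% of all). They gave 7 PN5 genes (0.621%, against 1.32%), and their means were 8.63% and 2.53%, against 5.88% and 6.33% for all genes. Their promoters were marked in CC only at 136 (12.1%, against 6.29%) and in PN5 only at 52 (4.61%, against 7.71%). With lists of equal length this order turned, with 29 and 59. Of 64 defensin genes, for antimicrobial peptides, 16 were CC genes, and 15 of these were among the 22 Defa genes, where the mean was 66.1% in CC and no base lay under a PN5 peak. Of 22 Mup genes, for major urinary proteins, 12 were CC genes (51.1% and 0.84%), and of 78 Cyp2, Cyp3 and Cyp4 genes, for cytochrome P450 enzymes, 23 were (33.0% and 7.62%), among them 7 of 9 Cyp3 genes. These counts move with the length of the CC list: with lists of equal length they were 47 for type 1 and 7 for type 2 vomeronasal receptors, 7 for olfactory receptors (8 for PN5), 2 for defensins, 4 for Mup and 15 for cytochrome P450 genes. In the same setting there were 20 calls of 2-cell stage genes and 38 of zinc finger genes. The limit on reads that fit several copies holds for these families too.

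Other clusters were marked in part, and their counts are to be set against 3.1% (CC) and 1.32% (PN5) of all protein-coding genes. Of 417 zinc finger genes, many of which encode repressors of transposable elements, 46 were CC genes and 3 PN5 genes, and 8 of the 46 were Zscan4 genes. Chromosome 4 held 17 of the 46 among its 32 genes, with a mean of 51.1% in CC and 10.4% in PN5. Of 62 genes of placental clusters 25 were CC genes, namely 10 of 13 Psg genes (80.4% and 14.8%), 7 of 8 placental cathepsin genes (74.1% and 3.94%), 6 of 15 Ceacam genes and 2 of 26 prolactin genes. Of 57 clustered protocadherin genes, which give neurons their surface identity, 18 were CC genes, 12 in Pcdhb and 6 in Pcdhg, and 1 was a PN5 gene, Pcdhb12 (24.8% in CC and 90.8% in PN5). Of 113 immunoglobulin heavy chain variable segments 84 were CC genes (79.2% and 4.55%), whereas 1 of 100 kappa segments was (0.83% and 2.94%), so related loci differed within CC. T cell receptor alpha segments were split, with 14 CC genes and 10 PN5 genes among 108.

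Genes of the skin barrier were divided. Lce genes of the cornified envelope had a mean of 20.2% in PN5 and 2.32% in CC with 4 PN5 genes among 21, of which 10 had no base under a PN5 peak, and Sprr genes 21.2% and 3.17% with 1 among 15. Keratin-associated protein (Krtap) genes had the opposite order, with 7.03% in PN5 and 13.2% in CC. In the wider list of 146 keratin and epidermal genes there were 7 PN5 and 6 CC genes, the latter all Krtap genes. Instead of 7 there was 1 PN5 call among peaks with a −log10 q of at least 2. Other lists had few calls in number, to be set against 3.1% (CC) and 1.32% (PN5) of all genes. They included 53 taste and trace amine receptor genes (0 in CC and 1 in PN5, Tas2r144, or 1.89%). Of 56 Klr and Clec receptor genes of immune cells 1 was a CC gene (1.79%) and none a PN5 gene. The 11 Skint genes of the skin had no calls, with means of 29.9% in CC and 2.60% in PN5. Of 67 replication-dependent histone genes 2 were CC genes (2.99%) and 3 PN5 genes (4.48%). Ribosomal protein genes, used in all cells, gave 1 CC gene (1.09%) and no PN5 gene among 92.

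**Figure D4:**
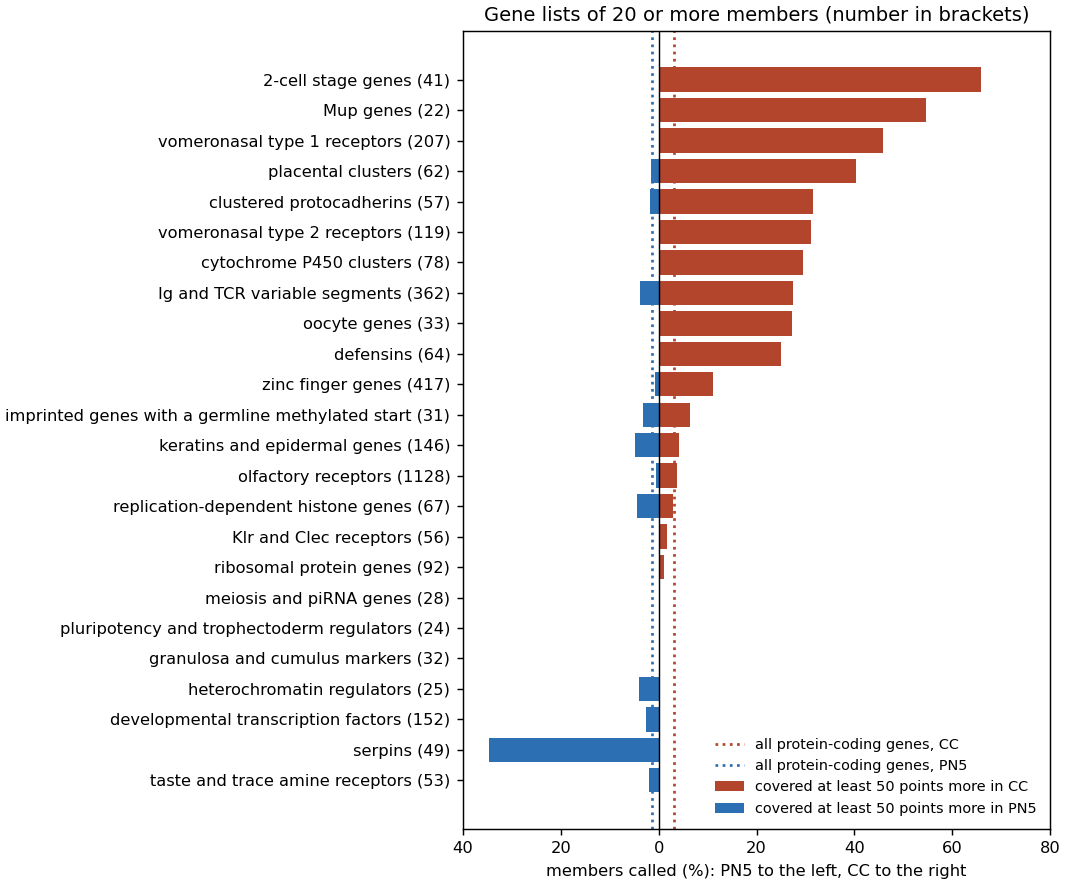
Bars give, for each gene list of at least 20 members (number in brackets), the percent of members covered at least 50 points more in CC (to the right) and in PN5 (to the left), and dotted lines mark 3.1% and 1.32%, the shares over all protein-coding genes. The 2-cell stage list reaches 65.9% on the CC side, and serpins are the longest bar on the PN5 side.

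At promoters, taken as 1 kb on each side of the gene start, the balance was opposite to that over the genome. To be called marked, a promoter had to be covered by 1 peak to at least 50% or to contain at least 50% of a peak. Marks in CC only were found at 1309 of 20807 promoters (6.29%), marks in PN5 only at 1604 (7.71%) and marks in both at 321. Of the 1309, 1248 held no base under a PN5 peak, and of the 1604, 1547 held no base under a CC peak. This order depends on the setting. It turned among peaks with a −log10 q of at least 2, with 1146 promoters in CC only and 794 in PN5 only, and when all peaks together had to cover 50% of the promoter, with 673 and 652.

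Promoters marked in CC only were poor in CpG, and those marked in PN5 only were like all promoters in this respect. High-CpG promoters made up 28.6% of the former (interval 26.3 to 31.2), 47.3% of the latter (44.8 to 49.7), 15.9% of those marked in both and 49.9% of all. Among the 10385 high-CpG promoters 3.61% were marked in CC only and 7.30% in PN5 only, and among the 6591 low-CpG promoters 11.6% and 8.19%.

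**Figure D5:**
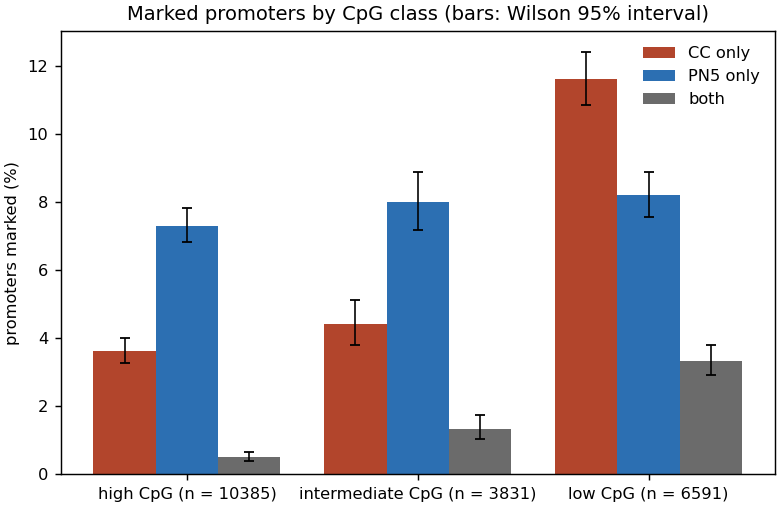
Bars give the percent of protein-coding promoters in each CpG class (x axis) that were marked in CC only, in PN5 only and in both (y axis, percent), with Wilson 95% intervals for counting error. PN5 only is above CC only at high-CpG promoters (7.30% against 3.61%), and below it at low-CpG promoters (8.19% against 11.6%).

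The promoters under the strongest CC peaks of this class were those of Fbxw2, an F-box gene (fold 6.89), Eml2, a microtubule protein gene (5.76), Tcfl5 (5.64), Stag3, Gpc2 and Gm43720, which share 1 peak at chr5:138280056-138281027 (5.43), Epp13 (4.90), Sbno2 (4.66), and the protocadherin genes Pcdhga10 and Pcdhga11, which share a peak of 17138 bp (4.60). In PN5 they were those of Spata45 (4.37), Gm28557 (4.28), Zfp740 (4.27), Nap1l5 (4.14), Cntn1, a neural adhesion gene (4.13), Alad (4.08), Fbxo39 (4.01), F7 (3.96), Lhcgr (3.95) and Diras2, a Ras-like GTPase gene (3.9). These peaks are of different kinds. At Fbxw2 the peak was 156 bp wide with its centre at -841 bp from the start, and at Nap1l5 it was 148 bp wide, so either could pass only by lying inside the promoter. The peaks of Tcfl5, Stag3, Alad, Fbxo39, F7, Lhcgr and Diras2 covered the start itself.

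Some genes of the germ line carried the mark at their starts in CC. Among 28 genes of meiosis and the piRNA pathway 9 promoters were marked in CC only (32.1%, against 6.29% of all promoters), 2 in PN5 only (7.14%, against 7.71%) and 1 in both, and none was a CC or PN5 gene. With lists of equal length there were 7 and 2. CC peaks covered 72.8% of the promoter of Dazl, which encodes an RNA-binding protein of germ cells (fold 4.24), 44% of that of Sycp1 and 37.8% of that of Sycp2, genes of the synaptonemal complex, and 48.6% of that of Stag3, and PN5 peaks covered none of these 4. Tdrd1, Piwil1, Stk31, Brdt and Tex19.1 were the other 5 of this class, and of these Piwil1 was also covered over 51.9% of its body in CC and 11.96% in PN5. Ddx4, the germ cell helicase gene, was marked in both (39.6% and 34.0%), and the piRNA genes Piwil4 (24.6%) and Mov10l1 (44.6%) were marked in PN5 only.

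Imprinted genes differed from each other. Among 31 there were 9 promoters marked in CC only (29.0%, against 6.29% of all promoters), 5 in PN5 only (16.1%, against 7.71%) and 4 in both. With lists of equal length the order turned, with 3 in CC only and 6 in PN5 only. Peg3 was covered over 90.2% of its promoter in CC and 66.4% in PN5, Nespas over 52.4% and 68.5%, and Zrsr1 over 31.6% and 72.0%. In CC only, the shared promoter of Peg10 (73.6%) and Sgce (68.6%), and those of Sfmbt2 (72.8%), Peg13 (100%) and Meg3 (71.6%) were marked. In PN5 only, those of Mcts2 (84.1%), Airn (85.0%) and Kcnq1ot1 (47.95%) were marked. Over gene bodies, Magel2 (86.3% and 17.1%) and Ndn (51.4% and 0%) were CC genes and Mcts2 (0% and 94.7%) a PN5 gene, and the difference at Ndn was 0 with lists of equal length.

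Transcription factor genes of development were less covered than all genes in CC, and near the level of all genes in PN5. The list held 152 genes of the Hox, Fox, Sox, Tbx, Gata, Pax, Lhx and Nkx families, among others. Their mean coverage was 2.66% in CC and 5.71% in PN5, against 5.88% and 6.33% for all protein-coding genes. None was a CC gene (against 3.1% of all), and 4 were PN5 genes (2.63%, against 1.32%). These were Hoxd9 (69.98% in PN5), Nkx2-3 (66.4%), Foxf1 (54.0%) and Sox4 (50.01%), each at 0% in CC. Among peaks with a −log10 q of at least 2, Nkx2-3 and Foxf1 differed by 0 points and there were 2 calls. Promoters of the list were marked in CC only at 23 (15.1%, against 6.29% of all) and in PN5 only at 14 (9.21%, against 7.71%), and at none in both, and with lists of equal length the order turned, with 8 and 14. In the Hoxa cluster CC peaks covered 47.6% of the promoter of Hoxa4, 29.6% of that of Hoxa5 and 58.2% of that of Hoxa6, where PN5 had no base, and PN5 peaks covered 30.6% of that of Hoxa9, where CC had none. Of 24 regulators of pluripotency and trophectoderm, 4 promoters were marked in CC only (16.7%, against 6.29% of all). None was marked in PN5 only (against 7.71%), and the list is too small to set 0 apart from that share. The 4 were Gata3 (36.05% of the promoter covered), Utf1 (12.6%), Zfp42 (9.45%) and Hand1 (6.2%). With lists of equal length 1 promoter was marked in CC only. Pou5f1, Sox2, Klf4, Cdx2 and Eomes had no base of either list over the gene body or the promoter.

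H3K9me3 lists do not measure expression, so markers could be checked for the mark only. Of 32 granulosa and cumulus genes none was a CC gene (against 3.1% of all genes). None of their promoters was marked in CC only (against 6.29% of all), and the list is too small to set 0 apart from these shares. The mean body coverage was 0.74% in CC and 5.22% in PN5, against 5.88% and 6.33% for all protein-coding genes. PN5 marked 4 of these promoters that CC did not (12.5%, against 7.71% of all, and 2 among peaks with a −log10 q of at least 2), those of Lhcgr (100%), Ereg, which encodes a growth factor of the ovulating follicle (43.1%), Hsd17b1, an estrogen synthesis gene (23.2%), and Nr5a2, a nuclear receptor gene (11.3%). Of 17 oocyte and zygote markers 1, Nlrp5, was a CC gene, and PN5 marked the promoters of Tle6 (34.4%) and Zp1 (29.4%). Of 7 blood cell markers, chosen for cells that could be among CC, 6 had no base under a CC peak, and Adgre1 was covered over 38.3% in CC and 14.3% in PN5. Of 25 genes for writers, readers and erasers of heterochromatin, the histone chaperone gene Daxx was the 1 PN5 gene (0% in CC and 61.1% in PN5), and PN5 marked the promoter of Dnmt3b, a de novo DNA methyltransferase gene, over 37.8%, where CC had no base. Zfp809, a silencer of retroviruses, had the highest CC value of this list, 29.8%, beside 0.96% in PN5.

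Among the other classes of genes, duplicated pseudogenes stood on the side of CC. Of 1789 unprocessed pseudogenes, copies left by gene duplication, 28% were covered at least 50 points more in CC and 3.30% in PN5, and of 8924 processed pseudogenes, copies made from RNA, 11.9% and 4.80%. Long intergenic noncoding genes gave 3.94% and 1.23%, and protein-coding genes 3.1% and 1.32%. MicroRNA genes had the opposite order. Of 2054, 89 were covered at least 50 points more in CC (4.33%) and 136 in PN5 (6.62%). Antisense genes had this order too, with 1.41% and 2.16%. The order in these classes was not checked at a −log10 q of at least 2.

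In imprinted clusters of small RNAs, picked after their values were seen, most calls lay in opposite directions, but only part of each cluster was called. The bin chr12:109000001-110000000 holds the microRNA cluster next to Meg3. There 13 of 68 microRNA genes were covered at least 50 points more in PN5, among them Mir127, Mir431, Mir433, Mir434 and Mir770, and none in CC. Of the 68, 51 had no base under a peak of either list. In the bin chr7:59000001-60000000, which holds the tandem small nucleolar RNA genes near Snrpn, 75 of 210 were covered at least 50 points more in CC and 9 in PN5. There 174 were covered by at least 50% in CC and 109 in PN5, so PN5 peaks also covered many of the 210. Small nucleolar RNA genes over all autosomes gave 135 in CC (9.36%) and 61 in PN5 (4.23%) of 1442. At chr13:65000001-66000000, 10 of 12 long intergenic noncoding genes, Platr2 among them, were covered at least 50 points more in CC.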

How the data were processed

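Per the labels and the study's methods, the authors trimmed reads with Cutadapt 1.16, aligned them to mm10 with BWA mem, merged replicates with SAMtools, removed duplicates and drew equal read numbers per group with Picard, and called broad peaks over input with MACS2. Other versions are not given in the sources used here, and depth per library is not in the lists. The deposited values are peak positions, a fold (a ratio over background), and −log10 p and −log10 q, averaged over each broad peak. The lowest −log10 q was 1.52 in CC and 1.30 in PN5.

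Peaks were intersected with Python 3.11.15, pandas 2.3.3 and NumPy 2.4.6, and figures were drawn with matplotlib 3.10.9. Peaks on the X, Y and mitochondrial chromosomes were left out (25925 in CC and 4847 in PN5). Sequence and soft-masking came from GRCm38.p6, genes from GENCODE M21, and promoter sequences from RefSeq. Windows needed at least 50% assembled bases. High-CpG promoters held a 500-bp window (steps of 10 bases) with a CpG ratio of at least 0.75 and at least 55% GC, and low-CpG promoters held none of at least 0.48. Overlap counts were tested on simulated data.

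Genes were named by rule: the 12 called genes per direction with the most bases in excess, the 6 longest covered to 90% in both, the 10 promoters and 5 peaks of highest fold per class, the 5 bins of widest difference, and up to 4 members per list plus all PN5 genes in it. Others are given as examples of their list. The comparison and the gene lists were chosen with earlier results of these data known. A peak and a promoter that these rules or lists would name are not reported here.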

Additional observations from a re-analysis of the deposited data

How the results depend on the processing

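No paired analysis was possible because each group has 1 list, called on merged replicates, and none of them could be omitted. Among peaks with a −log10 q of at least 2 the length ratio of CC to PN5 was 2.45, the Jaccard index 0.120, the share of CC windows marked in PN5 14.8% and that of PN5 windows marked in CC 36.8%, median GC 42.2% (CC only) and 46.5% (PN5 only), PN5 genes 160, promoters in PN5 only 794, and high-CpG shares 24.8% (CC only) and 44.2% (PN5 only). A fold of at least 3 gave a ratio of 1.69, and a width of at least 500 bp a ratio of 1.71 and an index of 0.132. Without chromosomes 4 and 7 these were 1.5 and 0.137, with shares of 19.5% and 30.1% and a PN5-only GC of 45.9%. With CC cut to the PN5 length by removing its weakest peaks, the index was 0.143, the shares 23.9% and 25.7%, GC 42.5% and 45.9%, CC genes 360, promoters in CC only 565 and their high-CpG share 24.8%. Calling windows at 25% of their bases gave shares of 22.3% and 33.8% and GC of 41.5% and 45.4%, and at 75% gave 15.3%, 31.2%, 42.2% and 46.5%. Gene calls at 25 points numbered 1142 (CC) and 929 (PN5), at 75 points 315 and 79, and among genes of at least 5 kb, a setting chosen after seeing the data, 348 and 102. Requiring all peaks together to cover 50% of the promoter turned the order, with 673 (CC only) and 652 (PN5 only) promoters and high-CpG shares of 7.88% and 44%, and promoters of 500 bp gave a CC-only share of 24.4%.

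Single values that changed sign were the CC minus PN5 differences of C920008G01Rik (34.0) and Tex101 (2.68) at a −log10 q of at least 2, and of Clec4a2 (-1.92), Clec4e (-20.3), Clec4d (-3.14) and Adgre1 (-0.55) with CC cut to the PN5 length. Of the named CC genes 56 of 63 and of the named PN5 genes 28 of 67 were called at a −log10 q of at least 2, and 40 of 63 and 67 of 67 with equal length. The counts of list members under both settings were also added after seeing the data. Over all autosomal peaks the median −log10 q was 1.93 in PN5 and 2.54 in CC.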

Other observations

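The 8 SCNT lists show where the windows of this comparison were marked in cloned embryos, whose nuclei come from CC. Of windows marked in CC only, 29.2% were marked at 6 h after activation, 48.2% at 14 h, 21.3% in 2-cell embryos, 22.0% in 4-cell embryos, 20.1% in 8-cell embryos, 29.9% in morulae, 27.9% in the inner cell mass and 25.1% in the trophectoderm. Of windows marked in PN5 only, the shares in the same order were 11.7%, 30.6%, 21.5%, 22.5%, 21.3%, 20.5%, 13.6% and 13.6%. The CC-only share was the higher at 6 and 14 h, in the morula and in both blastocyst lineages, and the PN5-only share was slightly the higher in the other three lists. Of windows marked in both CC and PN5, between 65.4% (8-cell) and 89.9% (14 h) were marked, and of windows marked in neither between 1.52% (2-cell) and 3.57% (morula). Each share comes from 1 pooled list.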
